A study of Mus musculus with 14 samples.

Results

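Surfactant is the film of phospholipid and protein that alveolar type II cells make, store in lamellar bodies and secrete to lower the surface tension of the alveolus. Its hydrophobic proteins, SP-B and SP-C, are encoded by Sftpb and Sftpc and act at the film itself. Both are cut out of larger precursors on the way to the lamellar body. SP-A and SP-D, encoded by Sftpa1 and Sftpd, are collectins, lectins with a collagen stem that bind microbes and take part in lung defence. SP-C is made by type II cells, and SP-B by type II and club cells, so both are used as marks of the distal lung epithelium.

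The 4 surfactant protein genes Sftpa1, Sftpb, Sftpc and Sftpd were followed over 14 Affymetrix Murine Genome U74v2 arrays. Members were all probe sets whose only gene symbol in the platform annotation was one of these 4 names. This gave 3 of 12422 probe sets, 1 each for Sftpb (160891_at), Sftpc (94900_at) and Sftpd (102648_at), and Sftpa1 was not analysed here. Of the 3 probe sets, 2 passed the filter on low signals, which asked for 3 or more arrays with 70 or higher, and entered the 6914 that were tested. The probe set of Sftpd reached 70 on 1 array and was not tested.

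The tumors were papillary adenocarcinomas of SPC/c-Myc-transgenic mice, in which the promoter of the human surfactant protein C gene drives c-Myc in the alveolar epithelium. There were 3 pools of small tumors (about 1 mm, 3 to 4 tumors of 1 animal in a pool), 4 middle-sized tumors (about 4 to 5 mm) and 3 large tumors (10 mm or more), each pool or tumor from its own animal. Control lung came from 4 non-transgenic mice. All mice had the CD2F1-(DBA/2xBalb/C) background and were 9 to 13 months old, and the transgenic ones were hemizygous. The pieces compared were tumor nodules in one case and whole lung in the other, and in such bulk RNA fewer cells of a type and less RNA per cell cannot be told apart. The 3 sizes share the same 4 control lungs, so their comparisons with control lung are not independent. The signal is a linear intensity that the authors scaled to a target of 250 on each array. One array, that of middle tumor replicate 3, had 25.0% of its deposited values at 0 or next to it. These were treated as missing, and Sftpb was one of them, so Sftpb rests on 9 tumors and Sftpc on 10.

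Myc, the gene that the transgene carries, had signals of 1738, 1391 and 1417 in the small tumor pools, of 325, 1246, 451 and 760 in the middle-sized tumors and of 2165, 2008 and 1055 in the large tumors, against 35.6, 24.1, 26.3 and 32.9 in control lung. Myc was far higher in each tumor than in any control lung, where no array reached 70. The sources used here do not say whether its probe set detects the transcript of the transgene, the mouse's own Myc or both. Of the type II cell markers, Slc34a2, a sodium phosphate cotransporter, averaged 4953 ± 1200 in tumors (SD, n = 10) and 3775 ± 590 in control lung (SD, n = 4). Lyz2, a lysozyme, averaged 4258 ± 1321 in tumors and 4259 ± 648 in control lung. It was also listed as a macrophage marker, so its signal is not particular to type II cells. Both genes thus gave strong signals in both tissues, and neither passed the test (limma, adjusted p = 0.143 for Slc34a2 and adjusted p = 0.834 for Lyz2).

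The promoter of Sftpb is shown because Sftpb is the member that differed between tumors and control lung. RefSeq's table for GRCm38.p6 held windows of 250 bases before to 50 bases after the start for 2 of the 4 members, Sftpb and Sftpa1. The Sftpb window lies on the plus strand at chr6:72304360-72304659, and the capitals mark the letters CTCAAG, the core bound by the lung epithelial factor NKX2-1.
Sftpb promoter: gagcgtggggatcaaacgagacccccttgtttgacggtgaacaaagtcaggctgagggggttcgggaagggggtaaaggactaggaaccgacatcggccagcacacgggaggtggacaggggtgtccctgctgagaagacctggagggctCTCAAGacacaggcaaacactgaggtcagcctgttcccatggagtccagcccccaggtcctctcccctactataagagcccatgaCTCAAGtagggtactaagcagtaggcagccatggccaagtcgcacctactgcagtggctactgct
Both strands of the window were searched for 6 motifs. CTCAAG stood on the plus strand at 100 and at 15 bases before the start, and 15.9% of 32851 windows held it. The forkhead motif, TGTTTAC or TGTTTGC, stood once on the minus strand at 88 bases before the start and was held by 8.48% of windows. These 3 matches did not overlap each other. The E-box CACGTG bound by MYC and MAX (7.15% of windows), AGATAA of GATA factors (11.2%), GCAAT of C/EBP sites (26.4%) and TATAAA (13.6%) had no match in the Sftpb window. In the Sftpa1 window CTCAAG stood once, at 166 bases before the start, and TATAAA once, at 30 bases before it. A match is a description of these letters and no proof of binding.

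Sftpb was higher in tumors than in control lung and lay above every control lung in every tumor with a value. Its signals were 8375, 7213 and 8091 in the small tumor pools, 7088, 9159 and 9524 in middle-sized tumor replicates 1, 2 and 4, and 9207, 11012 and 7755 in the large tumors, against 5366, 6392, 3904 and 6943 in control lung. The lowest tumor, middle-sized replicate 1, lay just above the highest control lung, replicate 4, and the lowest control lung was replicate 3. The mean was 8603 ± 1254 in tumors (SD, n = 9) and 5651 ± 1336 in control lung (SD, n = 4). In the fit over all probe sets the log2 fold change was 0.63 (standard error 0.17, 95% interval 0.27 to 0.99, limma adjusted p = 0.00766), a 1.54-fold difference. The exact permutation test gave p = 0.0027972, the smallest 2-sided p that 9 against 4 samples allow. Of the 2 members tested, 1 was called higher and none lower, while 23.6% of all 6914 probe sets tested were called higher in the same comparison and 21.0% lower. Probe sets with every tumor above every control lung made up 10.2% of those tested, and those with every tumor below made up 12.2%. These shares are over probe sets with up to 10 tumor values, while Sftpb had 9.

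**Figure D1:**
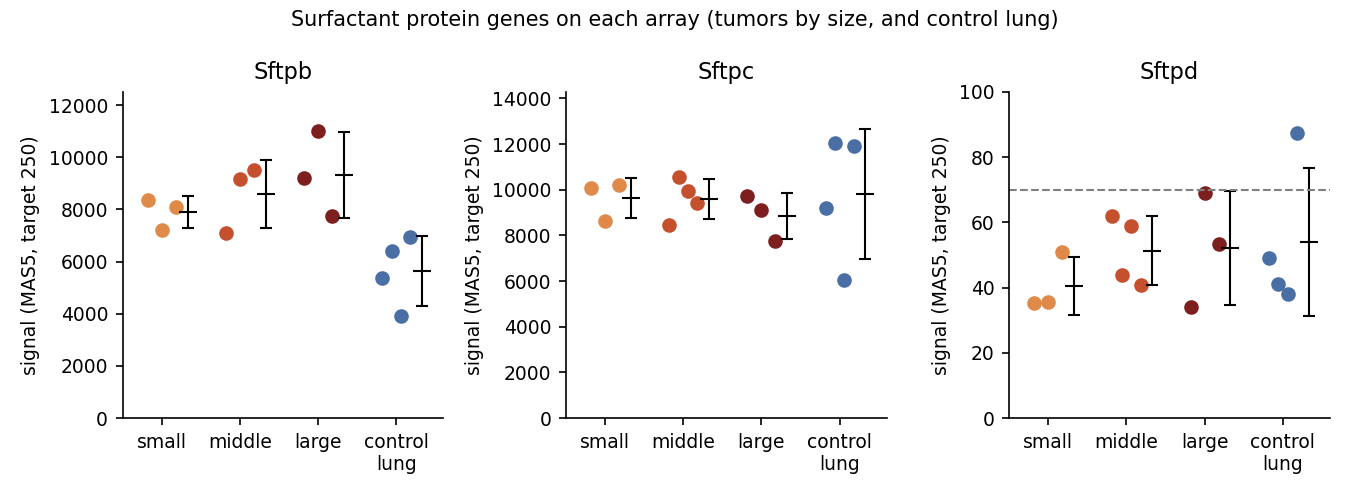
Signals of Sftpb, Sftpc and Sftpd (vertical axes, linear intensity at a target of 250) on each array, by tumor size and in control lung. Points are arrays, bars are the mean ± SD, and the dashed line in the Sftpd panel marks the limit of 70. The 9 Sftpb values of tumors, 7088 to 11012, all lie above the control lungs, the Sftpc values of tumors lie within the range of the control lungs, and 1 Sftpd value exceeds 70.

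The call of Sftpb over all tumors held when each array was left out in turn, with log2 fold changes of 0.46 to 0.74 and adjusted p up to 0.0318. It was lost when arrays were scaled by their bacterial hybridization controls (log2 fold change 0.49, adjusted p = 0.0821) and when the value of 0 of middle tumor replicate 3 was kept (log2 fold change 0.049, adjusted p = 0.976), and quantile normalization lowered the log2 fold change to 0.30 (adjusted p = 0.016).

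Sftpc did not pass the test in any comparison. Its signals were 10077, 8624 and 10192 in the small tumor pools, 8463, 10550, 9939 and 9407 in the middle-sized tumors and 9709, 9093 and 7768 in the large tumors, against 9191, 12067, 6029 and 11936 in control lung. All 10 tumors lay between the lowest and the highest control lung. The mean was 9382 ± 884 in tumors (SD, n = 10) and 9806 ± 2846 in control lung (SD, n = 4), so the coefficient of variation was 9.42% in tumors and 29.0% in control lung. The log2 fold change over all tumors was -0.02 (standard error 0.17, limma adjusted p = 0.937), and its 95% interval of -0.39 to 0.35 leaves room for a 0.763-fold to 1.27-fold difference. The exact permutation test gave p = 0.979. Leaving out single control lungs moved the value between -0.24 (without control lung replicate 3, adjusted p = 0.201) and 0.10 (without control lung replicate 2, adjusted p = 0.714).

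The probe set of the collectin gene Sftpd stayed near the lower end of the scale in both tissues. Its signals were 35.4, 35.5 and 50.9 in the small tumor pools, 61.9, 43.8, 59.0 and 40.8 in the middle-sized tumors and 34.1, 69.0 and 53.5 in the large tumors, against 49.2, 41.3, 38.1 and 87.3 in control lung. The mean was 48.4 ± 12.3 in tumors (SD, n = 10) and 54.0 ± 22.7 in control lung (SD, n = 4). Only control lung replicate 4 exceeded 70, the signal that the study asked of an expressed gene together with a present call, and such calls were not used here. No fold change is given for values below that limit. SP-D is known from healthy lung, and its probe set was low in 3 of the 4 control lungs as well. Whether this probe set detects the Sftpd transcript was not tested, so no level of Sftpd is read from it. In RefSeq's gene order for GRCm38.p6, Sftpd lies beside Mbl1, a mannose-binding lectin, and Sftpa1 on the other side of it on chromosome 14. Mbl1 had a probe set that did not pass the filter either. Sftpc lies elsewhere on chromosome 14, beside Bmp1 and Lgi3, and Sftpb on chromosome 6, beside Atoh8 and Usp39.

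By size, the Sftpb means stood in the order small, middle-sized and large, all above control lung. They were 7893 ± 606 in small tumor pools (SD, n = 3), 8590 ± 1314 in middle-sized tumors (SD, n = 3) and 9325 ± 1632 in large tumors (SD, n = 3), against 5651 ± 1336 in control lung (SD, n = 4). The log2 fold change over control lung was 0.51 in small tumor pools (limma adjusted p = 0.0752), 0.63 in middle-sized tumors (adjusted p = 0.0381) and 0.74 in large tumors (adjusted p = 0.0143). Sftpb was thus called higher in middle-sized and large tumors, where 15.8% and 19.8% of all probe sets were called higher, and it missed the threshold in small tumor pools, where 19.9% were called higher. Sftpc was not called in any size, and 16.7% of probe sets were called lower in small, 16.4% in middle-sized and 18.3% in large tumors. Every Sftpb value of each size lay above every control lung, as was the case for 27.2% of probe sets in small, 12.9% in middle-sized and 23.2% in large tumors. The share in middle-sized tumors is over probe sets with up to 4 values, while Sftpb had 3 there, so the 2 are not alike. The exact permutation test gave p = 0.0571 for each size, the smallest p that 3 against 4 samples allow. Neighbours in the order did not differ beyond their spread. The log2 difference was -0.11 for small tumor pools against middle-sized tumors (adjusted p = 0.999), -0.12 for middle-sized against large tumors (adjusted p = 0.916) and -0.23 for small tumor pools against large tumors (adjusted p = 0.826, 95% interval -0.72 to 0.26). None of the 2 members was called between sizes by limma or at an unadjusted p under 0.05. Of all probe sets, 0.0289% were called between small and large tumors and 0.0% in each of the other pairs.

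The calls by size moved with single arrays and with the normalization. The call of Sftpb in middle-sized tumors was lost without control lung replicate 1 (adjusted p = 0.0809) or 3 (0.0901), without small tumor replicate 1 (0.0507) or 3 (0.0529), and without middle tumor replicate 2 (0.115) or 4 (0.119). The call in large tumors was lost without large tumor replicate 2 (adjusted p = 0.0657) and with quantile normalization (log2 fold change 0.25, adjusted p = 0.104), and the small tumor pools passed without control lung replicate 4 (adjusted p = 0.0446).

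For Sftpc the means were 9631 ± 874 in small tumor pools (SD, n = 3), 9590 ± 884 in middle-sized tumors (SD, n = 4) and 8857 ± 992 in large tumors (SD, n = 3), against 9806 ± 2846 in control lung (SD, n = 4). The log2 fold change was 0.02 in small tumor pools, 0.02 in middle-sized tumors and -0.10 in large tumors, with limma adjusted p from 0.760 to 0.966. With quantile normalization Sftpc passed the test as lower in large tumors (log2 fold change -0.36, adjusted p = 0.023). Between sizes its log2 differences were 0.01 to 0.12, all within the spread.

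**Figure D2:**
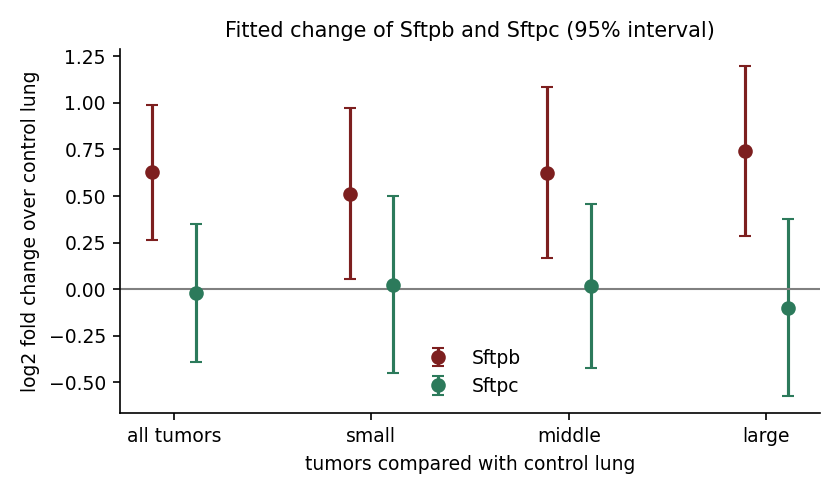
Fitted log2 fold change over control lung (vertical axis) of Sftpb and Sftpc for all tumors and for each size (horizontal axis), with bars for the 95% interval. The Sftpb intervals all lie above 0, with estimates of 0.51 to 0.74, and the Sftpc intervals all include 0.

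The 2 hydrophobic surfactant protein genes were set against each other within each array, since such a ratio is not changed by multiplying an array by 1 factor. Quantile normalization, which reshapes each array, does change it, and gave log2 fold changes over all tumors of 0.30 for Sftpb and -0.13 for Sftpc. The ratio of 2 probe sets gives no ratio of transcripts and was compared only between arrays. Sftpb over Sftpc was 0.831, 0.836 and 0.794 in the small tumor pools, 0.837, 0.868 and 1.01 in middle-sized tumor replicates 1, 2 and 4, and 0.948, 1.21 and 0.998 in the large tumors, against 0.584, 0.530, 0.647 and 0.582 in control lung. No tumor overlapped a control lung, and the gap was wider than for the signals of Sftpb. How many other probe sets separate the tissues in this way by their ratio to Sftpc was not computed. Over all tumors the log2 fold change was 0.63 for Sftpb and -0.02 for Sftpc. The ratio thus largely repeats the difference of Sftpb and is no independent result. The mean was 0.926 ± 0.132 in tumors (SD, n = 9) and 0.586 ± 0.0482 in control lung (SD, n = 4). The control lungs, which spread over 29.0% for Sftpc and 23.6% for Sftpb (coefficient of variation), spread over 8.23% for the ratio, so both genes were low or high on the same control arrays. The mean log2 ratio was 0.65 higher in tumors, a 1.57-fold difference (exact permutation test, 2-sided p = 0.0027972, the smallest possible, and 0.0196 after Benjamini-Hochberg adjustment over 7 comparisons). Leaving out each array gave log2 differences of 0.60 to 0.70.

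By size the mean ratio was 0.820 ± 0.0231 in small tumor pools (SD, n = 3), 0.906 ± 0.0935 in middle-sized tumors (SD, n = 3) and 1.05 ± 0.140 in large tumors (SD, n = 3), against 0.586 ± 0.0482 in control lung. Against control lung each size gave p = 0.0571, the smallest that 3 against 4 samples allow (exact permutation test, 0.1 after adjustment). The 3 small tumor pools lay below the 3 large tumors and below the 3 middle-sized tumors, and both comparisons gave an exact permutation p = 0.1, the smallest that 3 against 3 samples allow. The highest small pool, at 0.836, and the lowest middle-sized tumor, at 0.837, were nearly equal. Middle-sized and large tumors overlapped (exact permutation p = 0.3). The comparisons of the ratio by size were chosen after the data had been seen.

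**Figure D3:**
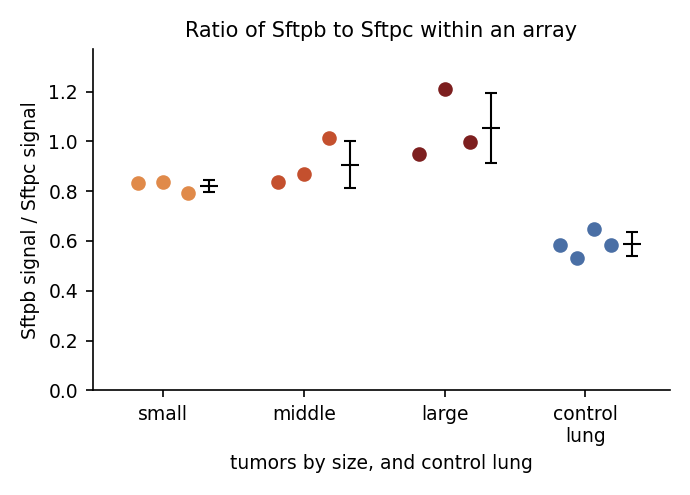
Ratio of the Sftpb signal to the Sftpc signal within each array (vertical axis) by tumor size and in control lung. Points are arrays and bars the mean ± SD, and the 9 tumors at 0.794 to 1.21 all lie above the control lungs at 0.530 to 0.647.

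Sftpc was among the brightest probe sets of nearly every array, so its distance from the highest signal was recorded. It stood at 96.8% to 99.5% of the array's highest signal in small tumor pools, at 90.2% to 100% in middle-sized tumors and at 91.0%, 63.0% and 87.1% in large tumors, against 92.8% to 98.6% in control lung. In middle tumor replicate 3 Sftpc was the brightest of the probe sets left, but 25.0% of that array's values were missing. A brighter probe set may be among those missing, so its rank and its 100% there are uncertain. On all 4 control lungs the brightest was a globin probe set. Sftpb stood at 76.3% to 91.3% in tumors and at 52.0% to 60.1% in control lung. These percents rest on unlike top probe sets in tumors and control lung. The highest signal itself was 8472 to 14433 in tumors, against 9317, 12289, 6497 and 12139 in control lung, and both Sftpc and Sftpb were lowest, among the control lungs, on the array with the lowest top signal (replicate 3). The bacterial hybridization controls had a geometric mean of 400 to 643 in tumors and of 438, 702, 271 and 438 in control lung, also lowest on that array. Whether the scale had a ceiling, and its part in the Sftpc values and in the ratio, was not tested. The ratios of 3' to 5' probe sets ranged over 1.16 to 1.38 in tumors and 1.18 to 1.24 in control lung for Actb, and over 0.767 to 0.971 in tumors and 0.757 to 0.900 in control lung for Gapdh.

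**Figure D4:**
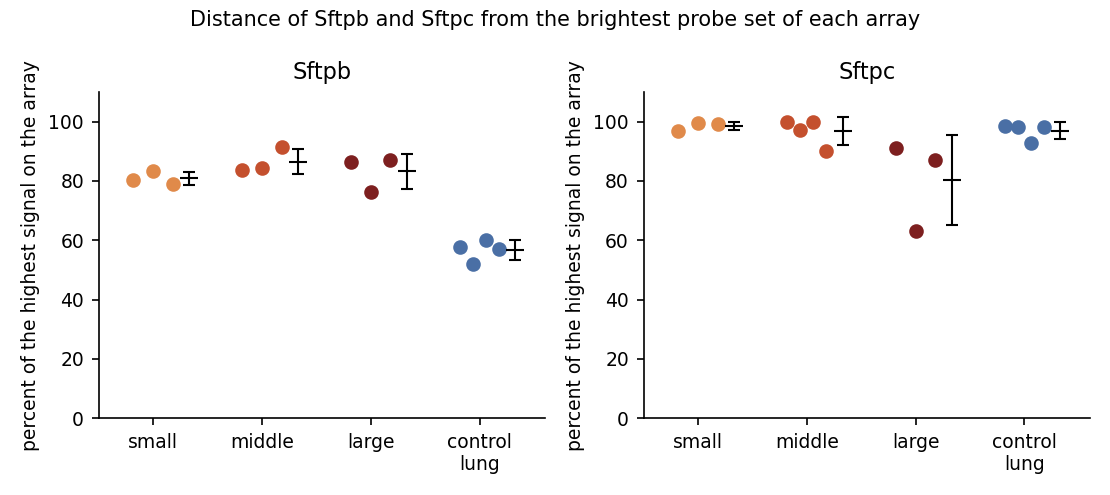
Signal of Sftpb and of Sftpc as a percent of the highest signal on the same array (vertical axes) by tumor size and in control lung, with points for arrays and bars for the mean ± SD. Sftpc lies at 87.1% or more on every array except large tumor replicate 2 at 63.0%, and Sftpb lies at 76.3% to 91.3% in tumors and at 52.0% to 60.1% in control lung.

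Because Myc was driven from the promoter of a surfactant protein gene, the members were set against the signal of the Myc probe set over the tumors, on the log2 scale. The 3 relations computed were Sftpb with Sftpc, Myc with Sftpb and Myc with Sftpc. Sftpb and Sftpc gave Pearson's r = 0.43 and Spearman's rho = 0.42 over 9 tumors (permutation p = 0.252 and p = 0.268), and r = 0.58 without the 2 tumors farthest from the median. Myc and Sftpb gave r = 0.51 and rho = 0.48 over 9 tumors (permutation p = 0.158 and p = 0.193), and r = 0.62 without 2 tumors. Myc and Sftpc gave r = 0.24 and rho = 0.28 over 10 tumors (permutation p = 0.499 and p = 0.427), and r = 0.24 without 2 tumors. None passed, raw or adjusted over the 3 (adjusted p from 0.378 to 0.499). With the mean of each size removed, r was 0.75 for Sftpb with Sftpc (exact permutation within sizes, p = 0.0833), 0.80 for Myc with Sftpb (p = 0.0833) and 0.75 for Myc with Sftpc (p = 0.0197), and none was under 0.05 after adjustment over the 3 (lowest adjusted p = 0.059). The tumors of 1 size share a mean here, and all values share the scaling of their array.

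The genes whose log2 signals ran most like a member's over the arrays differed between the 2 members. For Sftpb, over 13 arrays, they were Plp2 (Pearson's r = 0.94), a membrane proteolipid, Rplp0 (0.94), Rps28 (0.92) and Rps18 (0.91), proteins of the ribosome, and Hmgn1 (0.92), which binds nucleosomes. For Sftpc they were Tmsb4x (0.84 over 13 arrays), the actin-binding thymosin beta 4, Gnas (0.80 over 14 arrays), a G protein subunit, Ly6e (0.78 over 14 arrays), a surface protein, Pdcl3 (0.69 over 13 arrays), a phosducin-like protein, and Nectin3 (0.68 over 13 arrays), a cell adhesion protein. The median r over 6127 candidate genes was 0.08 for Sftpb and -0.00 for Sftpc. By Spearman's rho, 1 of the 5 genes named for Sftpb and 2 of the 5 named for Sftpc were again among the top 5. These correlations mix the difference between tumors and control lung with that between arrays of 1 group, and the genes share library and scaling.

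Genes that process, store or secrete surfactant moved in both directions. Of 23 listed, 16 were tested, and in all tumors against control lung 6 were higher, 3 lower and 7 did not pass, with a median log2 fold change of 0.29, beside 0.04 over all probe sets tested (23.6% higher and 21.0% lower). Stxbp2, a syntaxin-binding protein of exocytosis, averaged 598 ± 65.1 in tumors (SD, n = 10) and 329 ± 35.6 in control lung (SD, n = 4), with a log2 fold change of 0.87 (adjusted p = 1.8e-05). Lpcat1, which makes the saturated phosphatidylcholine of surfactant, averaged 1436 ± 317 in tumors (SD, n = 9) and 783 ± 213 in control lung, a log2 fold change of 0.89 (adjusted p = 0.00163). Both lay above every control lung in every tumor with a value, as did 10.2% of all probe sets tested. Among the cathepsins, Ctsc, a lysosomal dipeptidyl peptidase, was higher (log2 fold change 0.70, adjusted p = 0.0019), and so was Ctsh, a protease that cuts the SP-B and SP-C precursors (log2 fold change 0.48, adjusted p = 0.0376). Napsa, the aspartic protease that cuts the SP-B precursor, averaged 4086 ± 1653 in tumors and 2869 ± 219 in control lung and did not pass (log2 fold change 0.37, adjusted p = 0.160). Of the genes that were lower, Vamp2 is a vesicle fusion protein (log2 fold change -0.88, adjusted p = 9.4e-04), Anxa7 an annexin linked to lamellar body fusion (-0.74, adjusted p = 0.00206) and Lamp1 a lysosomal membrane protein (-0.42, adjusted p = 0.0107). The call of Ctsh was lost without any 1 of 8 arrays, namely control lung replicates 1, 3 and 4, small tumor replicates 1 and 3, middle tumor replicate 3 and large tumor replicates 1 and 3 (adjusted p = 0.0519 to 0.112), and that of Lamp1 without control lung replicate 2 (adjusted p = 0.0501). The count of 6 higher became 3 without control lung replicate 1 or 3, small tumor replicate 1 or 3, or large tumor replicate 3.

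Among genes of surfactant lipid synthesis, 4 of 15 tested were higher, 2 lower and 9 did not pass (25 listed, median log2 fold change 0.23). For comparison, calls over the 6914 probe sets of the fit came to 23.6% higher and 21.0% lower. Fasn, the fatty acid synthase, averaged 2560 ± 698 in tumors (SD, n = 10) and 847 ± 181 in control lung (SD, n = 4). Its log2 fold change was 1.57 (adjusted p = 9.6e-05). Every tumor lay above every control lung, as was the case for 10.2% of all probe sets tested. Acly, which supplies cytosolic acetyl-CoA, was higher by a log2 fold change of 0.72 (adjusted p = 0.00174), Srebf1, a regulator of lipid synthesis genes, by 0.51 (adjusted p = 0.00389), and Lpcat1 was the fourth. Lower were Fdps, of the mevalonate pathway (log2 fold change -0.90, adjusted p = 0.0205), and Chpt1, a choline phosphotransferase (-0.61, adjusted p = 0.0262). The calls of these 2 genes depended on single control lungs. Fdps missed the threshold without control lung replicate 3 (adjusted p = 0.0916) or 4 (0.0743), and Chpt1 without replicate 1 (0.0864), 2 (0.0798) or 3 (0.0718).

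Of 25 tested genes that regulate surfactant genes, 6 were higher, 10 lower and 9 did not pass (31 listed, median log2 fold change -0.12). The same fit called 23.6% of its 6914 probe sets higher and 21.0% lower. Elf5, an epithelial ETS factor, averaged 1347 ± 330 in tumors (SD, n = 10) and 227 ± 35.5 in control lung (SD, n = 4), with a log2 fold change of 2.55 (adjusted p = 5.8e-08). Cebpa, a factor of type II cell maturation, averaged 5155 ± 759 in tumors and 1777 ± 213 in control lung, a log2 fold change of 1.55 (adjusted p = 1.7e-07). Elf3, a related factor, was higher by 1.13 (adjusted p = 9.0e-04) and Foxa1, a forkhead factor, by 0.72 (adjusted p = 0.00392). Elf5, Cebpa and Elf3 lay above every control lung in every tumor, as did 10.2% of all probe sets tested, while Foxa1 overlapped. Its relative Foxa2 had a log2 fold change of 0.38 and did not pass (adjusted p = 0.115), but passed without middle tumor replicate 4 (adjusted p = 0.0164). Gata6 had a log2 fold change of -0.56 and did not pass (adjusted p = 0.266). Of the genes that were lower, Sox2, a factor of airway epithelium, had the largest change in this list, and its signals ran from 11.1 to 1854 in tumors and from 461 to 752 in control lung (log2 fold change -2.27, adjusted p = 0.0141). Hopx, a homeodomain protein of type I cells, averaged 1182 ± 420 in tumors and 4892 ± 1047 in control lung (log2 fold change -2.15, adjusted p = 1.3e-05). Every tumor lay below every control lung for Hopx, as was the case for 12.2% of all probe sets tested. Nr3c1, the glucocorticoid receptor (log2 fold change -0.81, adjusted p = 0.00208), and Cebpd (-0.74, adjusted p = 0.00245) were lower as well. Nkx2-1 was not analysed here.

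No tested gene of surfactant clearance was higher. Macrophages clear surfactant under the control of GM-CSF, and of 10 tested genes of this list 5 were lower and 5 did not pass (13 listed, median log2 fold change -0.46). Among all probe sets tested, 21.0% were lower and 23.6% higher. Which cells gave the signals of this list was not tested, and of 12 macrophage markers 3 were lower and 9 did not pass. Lpl, a lipoprotein lipase, averaged 228 ± 74.7 in tumors (SD, n = 10) and 803 ± 295 in control lung (SD, n = 4), with a log2 fold change of -1.81 (adjusted p = 4.4e-05). Cd36, a lipid scavenger receptor, had a log2 fold change of -1.47 (adjusted p = 3.7e-04) and Mrc1, the mannose receptor, one of -0.70 (adjusted p = 6.9e-04). Spi1, a myeloid factor, had -0.52 (adjusted p = 0.0334). Csf2rb2, the beta chain of the IL-3 receptor and not of the GM-CSF receptor, had -0.48 (adjusted p = 0.00145). The GM-CSF receptor chains were not among the genes called. Csf2ra had signals of 71.5 to 163 in tumors and 100 to 207 in control lung. Csf2rb had 18.5 to 229 in tumors and 45.2 to 198 in control lung. Lpl, Cd36 and Csf2rb2 lay below every control lung in every tumor with a value, as did 12.2% of all probe sets tested. For Csf2rb2 the margin was narrow, with the highest tumor at 107.8 and the lowest control lung at 108.1. Its signals in middle tumor replicate 4 (63.0) and large tumor replicate 3 (66.4) were below 70. The call of Spi1 was lost without control lung replicate 1 or 2, small tumor replicate 1 or 3, or large tumor replicate 1 (adjusted p = 0.0512 to 0.149). Of 2 tested collectins and other lung lectins, Mrc1 was lower and Lgals3, galectin 3, did not pass (log2 fold change -0.71, adjusted p = 0.093). A second call came without middle tumor replicate 3 or large tumor replicate 3.

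**Figure D5:**
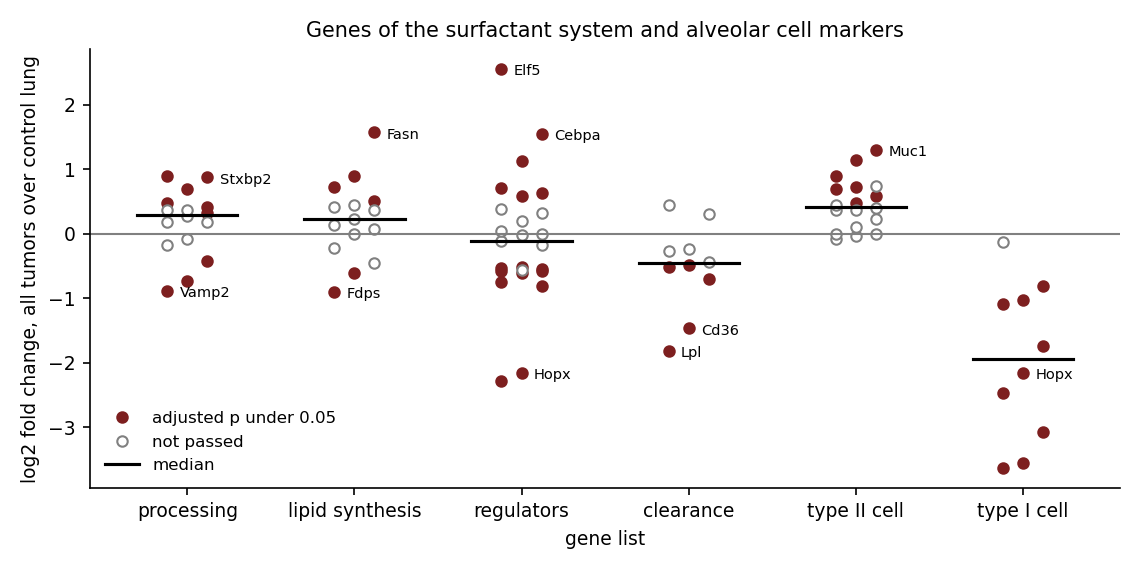
Log2 fold change of all tumors over control lung (vertical axis) for the tested genes of 4 surfactant lists and of the alveolar type II and type I cell lists (horizontal axis). Filled points passed an adjusted p under 0.05, open points did not, and lines are list medians, which lie between -0.46 and 0.42 except for type I cells at -1.94.

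Markers of the cells in these pieces differed between tumors and control lung as well. Over all probe sets tested, 23.6% were higher in all tumors and 21.0% lower, and 19.9%, 15.8% and 19.8% were higher in small, middle-sized and large tumors. Of 18 tested alveolar type II markers, 7 were higher, none lower and 11 did not pass, with a median log2 fold change of 0.42. Lpcat1, Ctsh and Acly are among those higher and were also counted in the processing or lipid lists, so these lists are not independent. By size 6, 8 and 5 type II markers were higher in small, middle-sized and large tumors. The summed signal of the 13 type II markers with a value on every array was 24750 to 49861 in tumors and 23931 to 27542 in control lung. Muc1, an epithelial mucin of that list, averaged 3892 ± 910 in tumors (SD, n = 10) and 1552 ± 248 in control lung (SD, n = 4), with a log2 fold change of 1.30 (adjusted p = 1.6e-05), and was chosen after its values had been seen. Of 10 tested type I markers 9 were lower, with sums of 4868 to 9314 in tumors and 17327 to 24543 in control lung, and of 12 club cell markers 6 were lower, with sums of 6089 to 31904 in tumors and 27944 to 40500 in control lung. Scgb1a1, the defining secretory protein of club cells, averaged 6501 ± 2249 in tumors and 8961 ± 2315 in control lung and did not pass (adjusted p = 0.157). Of 20 endothelial markers 19 were lower, with sums of 2628 to 4575 in tumors and 26139 to 33108 in control lung, and likewise 13 of 17 fibroblast and smooth muscle markers, all 10 cardiac muscle markers and all 4 erythroid markers tested. Of 12 macrophage markers 3 were lower, with sums of 6801 to 11474 in tumors and 9510 to 11684 in control lung, and of 7 lymphocyte markers 4 were lower. The ciliated list had 1 lower of 3 tested, the gut and liver list 1 higher of 7, and the proliferation list 17 higher of 18. Apart from the missing values of middle tumor replicate 3, no marker named here was at 0 on an array. The part of these shares of cells in the values of Sftpb and Sftpc was not tested.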

How the data were processed

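RNA of 10 SPC/c-Myc tumors or tumor pools and 4 control lungs was measured on 14 arrays. The authors computed the deposited signal with MAS5, a linear intensity per probe set scaled to a target of 250. The trimmed mean was 250.1 on 13 arrays, and on middle tumor replicate 3 it was 195.8, with 3125 values below 0.001 that were treated as missing. The number of arrays limits the precision, and 6796 to 7575 probe sets reached 70 on the 13 other arrays. Detection calls were not used here. The genome build behind the probe annotation is not given in the sources used here.

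Of 12488 probe sets, 66 controls were left out, and of the other 12422, 10833 had 1 symbol, 396 several and 1193 none. Signals below 70 were raised to 70 before log2 was taken, so a fold change understates that of low genes. A symbol with several probe sets was represented by its brightest one on average. A model of 4 groups was fitted to 6914 probe sets in limma 3.58.1 under R 4.3.3, with an intensity trend of the variance and Benjamini-Hochberg adjustment, and checked on simulated data. Calls needed an adjusted p under 0.05. Exact and 100000-resample permutation tests were 2-sided (scipy 1.17.1).

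The members and the 17 gene lists were chosen with earlier results of these data known. Named are the members, Myc, list genes that passed in all tumors (over 8 in a list, the 4 largest changes each way), a fixed set of regulators and processing genes, the 5 genes most like each member, and up to 3 genes per cell type list. Alternatives were other floors, filters and scalings, all probe sets, other limma settings, array weights, a replicate block, the methods' unpaired test and leaving out each array. Scaling by 9 bacterial control probe sets was added after the data had been seen. The ratio had been planned for 6 pairs of members, of which 1 could be formed, and the relations with Nkx2-1 could not be computed.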

Additional observations from a re-analysis of the deposited data

How the results depend on the processing

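Of 72 results, 43 stayed on their side of the threshold (counts within 1.5 times) under every one of the settings run for them. Of these 43, 6 log2 fold changes of Sftpb or Sftpc changed sign under some setting, none of them called. Sftpc over all tumors, for example, ran from -0.24 to 0.10. Among called values, 1 reversed. Kept at the deposited 0, middle tumor replicate 3 turned the log2 fold change of Sftpb in middle-sized tumors to -1.11 (adjusted p = 0.531) and lowered that over all tumors to 0.049 (adjusted p = 0.976). Scaling by bacterial controls gave 0.49 over all tumors (adjusted p = 0.0821). The number of members called over all tumors was 1, and 0 under both settings. In small tumor pools it was 0, and 1 with scaling to 1 median, with array weights and with the replicate block. In middle-sized tumors it was 1, and 0 with zeros kept, no filter, the replicate block, only the groups compared, the methods' unpaired test (unadjusted or adjusted) and bacterial control scaling. In large tumors it was 1, and 0 with zeros kept, the adjusted unpaired test and bacterial control scaling. With quantile normalization it stayed 1 in large tumors but with another member, since Sftpb was no longer called (0.25, adjusted p = 0.104) and Sftpc was called lower (-0.36, adjusted p = 0.023). Leaving out each array gave 1 to 1 members over all tumors and 0 to 1 in each size. Myc and Sftpc gave r = 0.75 with size means removed, against 0.24. The cause was not tested.

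Samples were not treated as paired by replicate number. Of 19 pairs of arrays with the same number, 1 correlated above 0.1 (r from -0.21 to 0.14, group means removed). Pairs of unlike number were not compared, so these values cannot settle whether replicates of 1 number share a factor. With the replicate block, Sftpb had a log2 fold change of 0.66 over all tumors (adjusted p = 0.0053), of 0.61 in small tumor pools (adjusted p = 0.0344) and of 0.52 in middle-sized tumors (adjusted p = 0.0516). It left 1533 probe sets higher and 1395 lower of 6914.

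Over all probe sets the median log2 fold change of all tumors was 0.04, 0.13 with scaling to 1 median and -0.09 with bacterial control scaling. Higher and lower calls, 1631 and 1452, became 1920 and 1203 with the first and 641 and 1187 with the second. Bacterial control scaling left 2 genes higher in the processing list, 2 in the lipid list, 3 among regulators and 3 among type II markers.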
